A study of Komagataella phaffii GS115 with 6 samples.

Results

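Genes that act in two-carbon metabolism or in the control of gluconeogenesis, 5 in all, were described in the methylotrophic yeast Komagataella phaffii (Pichia pastoris) GS115. They are CAT8 (PAS_chr4_0540), SFC1 (PAS_chr4_0688), IDP2 (PAS_chr2-1_0580), ALD5 (PAS_chr3_0987) and Gid4 (PAS_chr4_0047), 5 of the 115 genes in the table analysed here. They were taken by their identifiers from a table whose genes had been selected on the authors' fold change and p-value between the same media. Their differences between the media, and those of the other listed genes, are therefore descriptions. Counts of genes past a test threshold are printed only beside the share for the whole table and support nothing.

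Cells labelled WT had grown 48 h in either of 2 media. One was BMMY, a complex medium that is buffered and supplies methanol as carbon source, and the other was BMMY plus 1% maltose, so the maltose came on top of the methanol. Each medium had 3 RNA-seq libraries. The labels do not say whether these came from separate cultures or whether the cells carried a collagen construct, although the series concerns collagen production. Spread between libraries may therefore be technical, and in bulk RNA a change in every cell and a change in some of the cells cannot be told apart.

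Yeasts growing on ethanol or acetate oxidise these substrates to acetyl-CoA and build sugar from it through the glyoxylate cycle and gluconeogenesis. In Saccharomyces cerevisiae the zinc cluster activator Cat8, under control of the Snf1 kinase, switches on genes of this route when glucose runs out. Sfc1 exchanges cytosolic succinate for mitochondrial fumarate, Idp2 makes NADPH outside mitochondria, and Ald5 is a mitochondrial aldehyde dehydrogenase, an enzyme class that oxidises acetaldehyde to acetate. Gid4, called Vid24 in S. cerevisiae, is the substrate receptor of the GID ubiquitin ligase, which marks gluconeogenic enzymes such as fructose-1,6-bisphosphatase for degradation when glucose returns. These roles are background from S. cerevisiae and were not measured here.

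The annotation of 2 of the genes rests on distant matches. The Gid4 symbol comes from a mouse protein, while the K. phaffii description in the table is a peripheral protein of vacuole import and degradation vesicles. IDP2 takes its symbol from a peroxisomal enzyme of Candida tropicalis, whereas its K. phaffii description calls it cytosolic. The table therefore does not settle in which compartment this NADP-dependent isocitrate dehydrogenase acts.

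With maltose the activator gene CAT8, the carrier gene SFC1 and the NADPH-forming IDP2 were lower, and ALD5 and Gid4 were higher. All 5 passed the filter on low values. In all 5 the FPKM ranges of the media did not overlap, but 94.6% of the 112 listed genes tested had ranges that did not overlap. By the quasi-likelihood test of edgeR, with a threshold of 0.05 on the adjusted p, all 5 also passed, as 93.8% of the listed genes did. Nothing is read from either count. That count of 5 was 3 without BMMY replicate 2, without BMMY replicate 3 or without maltose replicate 3, where ALD5 and Gid4 did not pass. It was 4 without maltose replicate 1 or without maltose replicate 2, where Gid4 did not pass, and 5 without BMMY replicate 1. Of the 112 genes, 29, 35 and 37 were called higher without BMMY replicate 2, BMMY replicate 3 and maltose replicate 3, against 49 with all libraries. The genes called higher were 39, 41 and 56 without maltose replicate 1, maltose replicate 2 and BMMY replicate 1. In each of these fits 56 genes were called lower.

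CAT8 is the regulator of the group and had the lowest level in the maltose libraries. Its levels were 11.2, 21.2 and 25.2 FPKM in BMMY replicates 1, 2 and 3 and 6.52, 6.77 and 7.57 FPKM in maltose replicates 1, 2 and 3. The maltose libraries lay close together and below every BMMY library, and BMMY replicate 1 was the BMMY library nearest to them. Mean levels were 19.2 ± 7.2 FPKM in BMMY and 6.95 ± 0.545 FPKM with maltose (SD, n = 3), 2.76-fold lower with maltose (log2 fold change -1.46, SE 0.29). Counts of CAT8 were between 712 and 4290 per library, so counting error alone was at most 3.7% of a value.

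SFC1 encodes the succinate-fumarate carrier of the inner mitochondrial membrane and was the most abundant of the 3 lower genes. BMMY replicates 1, 2 and 3 had 161, 350 and 456 FPKM, and the maltose libraries had 117, 111 and 125 FPKM. BMMY replicate 1 was again the lowest BMMY library, only a little above the highest maltose library. The means were 322 ± 149 and 118 ± 7.03 FPKM, 2.73-fold lower with maltose (log2 -1.45, SE 0.35).

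IDP2, which forms NADPH from isocitrate, had the strongest decrease of the 3. Its BMMY levels were 45.0, 79.7 and 94 FPKM in replicates 1, 2 and 3, against 18, 17.6 and 20.1 FPKM with maltose. On FPKM every BMMY library was more than 2 times as high as any maltose library, a margin that depends on the scaling between libraries. The means of 72.9 ± 25.2 and 18.6 ± 1.34 FPKM gave a 3.93-fold lower level with maltose (log2 -1.97, SE 0.28). Among the 56 lower genes tested IDP2 was 18th by size of the log2 fold change, CAT8 40th and SFC1 45th, around a median of -1.64.

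ALD5, the mitochondrial aldehyde dehydrogenase gene, had the smallest difference. It had 25.9, 15.3 and 18.5 FPKM in BMMY replicates 1, 2 and 3 and 29.6, 31.0 and 40.1 FPKM in the maltose libraries. The gap between the groups, from BMMY replicate 1 to maltose replicate 1, was smaller than the spread inside either medium. Means of 19.9 ± 5.44 and 33.6 ± 5.72 FPKM made ALD5 1.69-fold higher with maltose (log2 0.75, SE 0.24), 33rd by size of the 56 genes with positive fold changes, whose median was 0.80. Its direction depended on the scaling between libraries: ALD5 was at 0.29 with TMM factors and at -0.09 when the FPKM of the listed genes was made to sum to the same total.

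Gid4, the substrate receptor gene, was the most abundant of the 5 with maltose. In BMMY it had 385 FPKM in replicate 1 but 69.4 and 64.0 FPKM in replicates 2 and 3. With maltose it had 569, 557 and 491 FPKM. The maltose libraries agreed closely, whereas BMMY replicate 1 lay nearer to them than to the other BMMY libraries. Its BMMY mean of 173 ± 184 FPKM had an SD larger than the mean, a coefficient of variation of 106%, which was the highest of the 112 genes tested. The maltose mean was 539 ± 41.8 FPKM, 3.12-fold higher (log2 1.64, SE 0.66). Without BMMY replicate 1 the difference was 8.08-fold (log2 3.01, SE 0.15), so 1 library decides the size of this value.

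**Figure D1:**
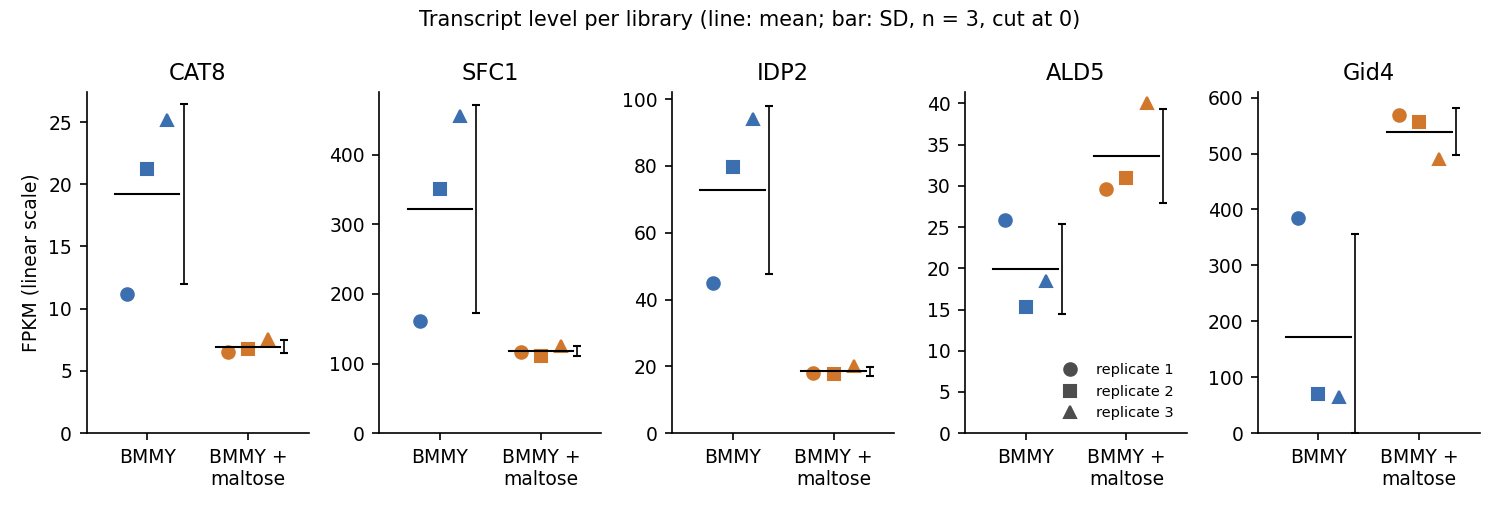
Level of each gene in FPKM (linear axis starting at 0, own scale per gene) in the 3 BMMY and 3 maltose libraries, with marker shapes for replicate numbers, lines for means and bars for SD. BMMY replicate 1 lies on the maltose side of the other BMMY libraries in all 5 genes, for example at 385 against 69.4 and 64.0 FPKM for Gid4. Over the genes tested it does so in 24 of the 56 lower and 47 of the 56 higher genes.

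Because FPKM is per gene length, levels can be ranked between genes. In BMMY replicates 2 and 3 the order from high to low was SFC1, IDP2, Gid4, CAT8 and ALD5. The neighbours IDP2 and Gid4, and CAT8 and ALD5, were not separated beyond the spread of all 3 BMMY libraries, since each pair changed places in BMMY replicate 1. With maltose the order was Gid4, SFC1, ALD5, IDP2 and CAT8, and no neighbouring pair overlapped there. Gid4 went from below SFC1 in BMMY replicates 2 and 3 to above it in the maltose libraries, and ALD5 from the lowest of the 5 to the middle.

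The coefficient of variation in BMMY was 37.5% for CAT8, 46.4% for SFC1, 34.6% for IDP2 and 27.3% for ALD5, above the median of 19.5% over the 112 genes. With maltose it was between 5.96% and 7.84% for CAT8, SFC1, IDP2 and Gid4, below the median of 11%, and 17% for ALD5. In each of the 5 genes BMMY replicate 1 was the BMMY library farthest from the other 2. It was the lowest BMMY library in 24 of the 56 lower genes tested and the highest in 47 of the 56 higher genes. To place a BMMY library between the media, its distance from the mean of the other 2 BMMY libraries was divided by the distance from that mean to the maltose mean, on log2 FPKM. A value of 0 is the level of the other BMMY libraries and 1 that of the maltose libraries.

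BMMY replicate 1 stood at 0.60 for CAT8, 0.75 for SFC1, 0.42 for IDP2, 0.63 for ALD5 and 0.84 for Gid4. BMMY replicates 2 and 3 stood between -0.94 and -0.15 for all 5 genes, on the side away from maltose, in part because replicate 1 enters the mean they are set against. On linear FPKM, a scale added after the data were seen, BMMY replicate 1 stood at 0.74, 0.85, 0.61, 0.54 and 0.67 in the same order. Its share of the way thus differed between the genes on both scales.

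Lower and higher genes of the table differed in this placing. The placing depends on the scaling between libraries and was computed with FPKM only. On log2 FPKM the median position of BMMY replicate 1 over the 56 lower genes was 0.00, and 6 of them stood at 0.5 or above. SFC1 was the highest of these 56, CAT8 was 5th and IDP2 13th. The other genes at 0.5 or above on log2 FPKM were LPL1, ATO2, PAS_chr2-1_0289 and SFL2. They are named because they share this range and were chosen after their values were seen. On linear FPKM 14 of the 56 lower genes stood at 0.5 or above, with ATO2 at 0.86 above SFC1 and LPL1 at 0.85. Over the 56 higher genes the median was 0.55 on log2 FPKM and 0.43 on linear FPKM. Gid4 was 10th and ALD5 24th of them on log2 FPKM. The part that BMMY replicate 1 plays in these differences was measured by leaving it out: CAT8 was then 3.33-fold lower (log2 -1.74), SFC1 3.41-fold lower (-1.77), IDP2 4.68-fold lower (-2.23) and ALD5 1.99-fold higher (0.99).

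**Figure D2:**
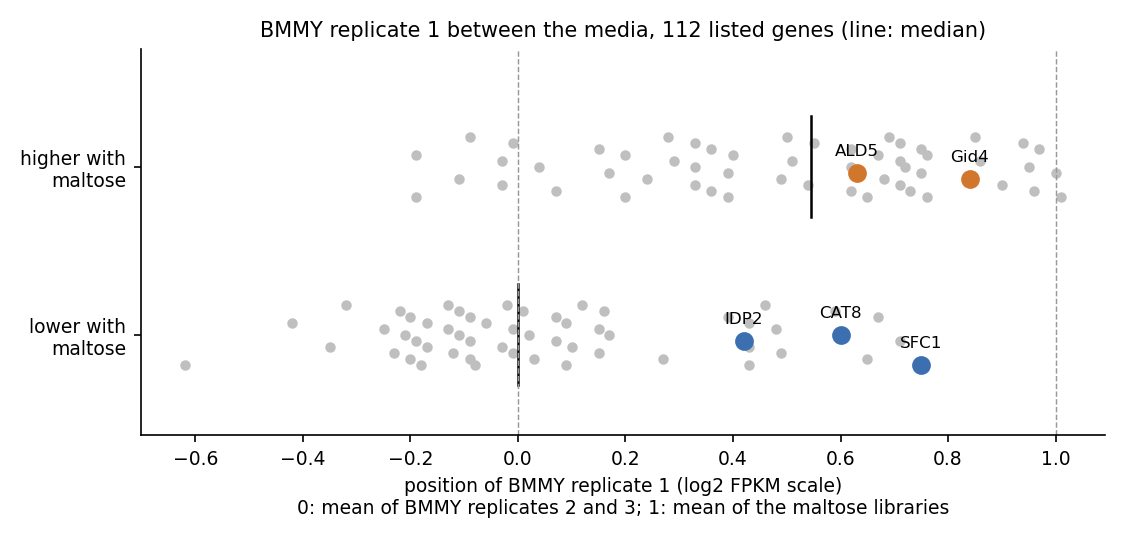
Position of BMMY replicate 1 on the log2 FPKM scale for the 56 lower and 56 higher genes tested, where 0 is the mean of BMMY replicates 2 and 3 and 1 the maltose mean. Grey points are other listed genes, coloured points the 5 genes, black lines medians (0.00 and 0.55), and vertical jitter has no meaning. SFC1 (0.75) and CAT8 (0.60) lie far from the median of the lower genes.

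Ratios between genes inside a library do not depend on how libraries are scaled to each other. The log2 ratio of SFC1 to CAT8 was 3.84, 4.05 and 4.18 in BMMY replicates 1, 2 and 3 and 4.17, 4.04 and 4.05 with maltose. The carrier and the activator thus kept nearly the same ratio in all 6 libraries, with a range of 0.34. Its mean was 4.02 ± 0.17 in BMMY and 4.09 ± 0.07 with maltose, a difference smaller than the spread between BMMY libraries. This steadiness was not particular to the pair. The unnamed lower gene PAS_chr2-1_0289 had a log2 fold change of -1.45, like SFC1 (-1.45) and CAT8 (-1.46), and a profile almost as close to each of them.

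IDP2 did not keep pace with SFC1 and CAT8. The log2 ratio of IDP2 to CAT8 was 2.0, 1.91 and 1.90 in BMMY and 1.46, 1.38 and 1.41 with maltose. All 3 maltose libraries lay below all 3 BMMY libraries, by 0.52 on average, while the SD was 0.06 in BMMY and 0.04 with maltose. For SFC1 to IDP2 the mean log2 ratio was 2.08 ± 0.22 in BMMY and 2.67 ± 0.03 with maltose. In BMMY replicate 1 this ratio was 1.84, farther from the maltose libraries than in BMMY replicates 2 (2.13) and 3 (2.28). So BMMY replicate 1 was close to the maltose libraries in the level of SFC1 but not in its ratio to IDP2.

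The 2 higher genes were set against FBP1 (PAS_chr3_0868), fructose-1,6-bisphosphatase of gluconeogenesis and, in S. cerevisiae, a substrate of the GID ligase. FBP1 had 1487, 1233 and 1219 FPKM in BMMY replicates 1, 2 and 3 and 2172, 2106 and 2281 FPKM with maltose. The log2 ratio of ALD5 to FBP1 was -6.07 ± 0.24 in BMMY and -6.04 ± 0.19 with maltose, so the media did not differ in it beyond the spread. Both genes were selected as higher, with log2 fold changes of 0.75 and 0.74, near the median of 0.80 over the 56 higher genes. Their level ratio is therefore no sign of a link between them, and ratios for other pairs of higher genes were not set beside it. The log2 ratio of Gid4 to FBP1 was -1.95 in BMMY replicate 1, inside the range of the maltose libraries (-2.21 to -1.92). It was -4.15 and -4.25 in BMMY replicates 2 and 3, which separated these from all other libraries.

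Of the 4 other genes set against SFC1, Gid4 had the largest difference between the media. Its log2 ratio to SFC1 was 1.26, -2.33 and -2.83 in BMMY replicates 1, 2 and 3 and 2.28, 2.32 and 1.97 with maltose. The transcript of the GID receptor therefore exceeded that of the carrier in BMMY replicate 1 and in every maltose library, and was below it in BMMY replicates 2 and 3. The means differed by 3.49, with an SD of 2.23 in BMMY. Since Gid4 was selected as a higher gene and SFC1 as a lower one, a difference in this direction followed from the selection.

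**Figure D3:**
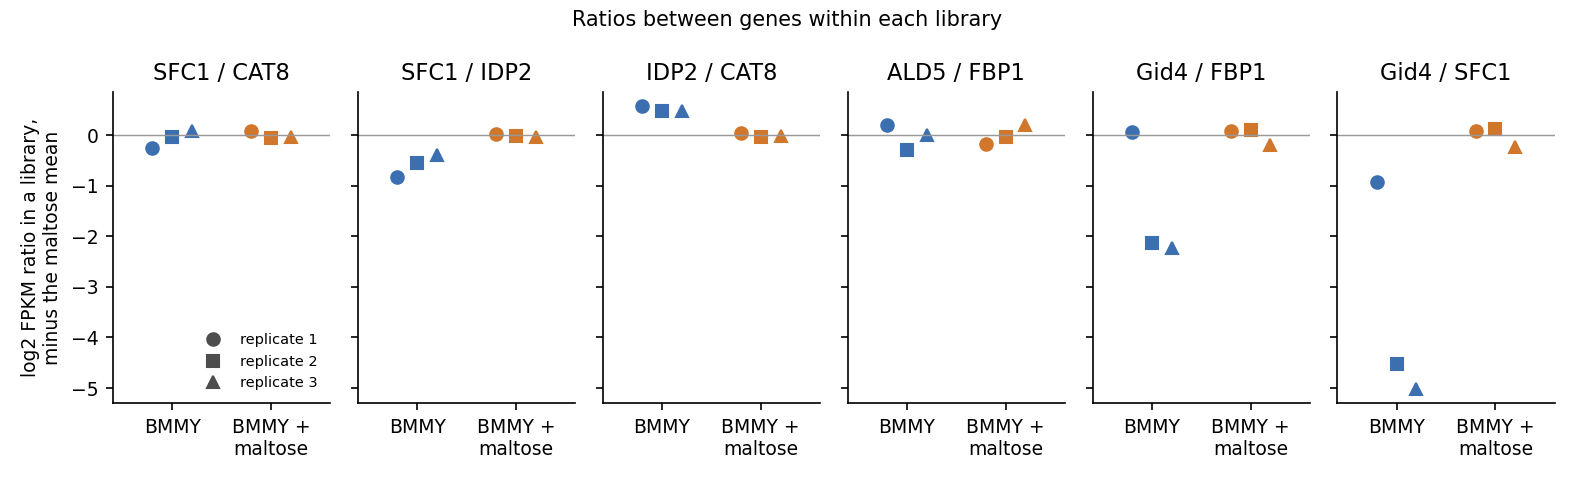
Log2 ratios of FPKM between gene pairs in each library, drawn as the difference from the mean of the maltose libraries (grey line at 0), with marker shapes for replicate numbers. SFC1 / CAT8 and ALD5 / FBP1 stay within 0.34 and 0.50 over the 6 libraries, IDP2 / CAT8 separates the media, and Gid4 / FBP1 puts BMMY replicate 1 among the maltose libraries.

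The genes with the most similar profiles were found from the root mean square difference between log2 FPKM profiles, each centred on its mean over the 6 libraries. For CAT8 the closest of the 111 other genes was SFC1 (difference 0.11), and CAT8 was the closest to SFC1. After these came PAS_chr2-1_0289, a gene without a name (0.12 from each), and TFAP4 (PAS_chr1-1_0122), named from a human transcription factor (0.15 from CAT8 and 0.23 from SFC1). PAS_chr2-1_0289 had 68.2, 139 and 159 FPKM in BMMY replicates 1, 2 and 3, also lowest in replicate 1. Without BMMY replicate 1, CAT8 and SFC1 were still each other's closest gene (0.06), but hardly separated from the next genes. These were YPS1 (PAS_chr3_0299, 0.07 from CAT8 and 0.09 from SFC1) and PAS_chr4_0360 (0.10 from CAT8 and 0.08 from SFC1).

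IDP2 was most like pkp1 (PAS_chr4_0756, difference 0.16), annotated as a mitochondrial kinase that acts on pyruvate dehydrogenase, the enzyme that turns pyruvate into acetyl-CoA. The pkp1 levels were 12.2, 22.4 and 30.3 FPKM in BMMY replicates 1, 2 and 3 and 5.42, 4.02 and 5.96 FPKM with maltose. SFL2 (PAS_chr2-1_0404), annotated as a transcription factor, was next to IDP2 at 0.19. Without BMMY replicate 1 the nearest to IDP2 were CAR2 (PAS_chr3_0410, 0.10), ornithine transaminase, and SFL2 (0.14), so the place of pkp1 rests on that library. ALD5 was closest to ustS (PAS_chr2-1_0748, 0.08), similar to a glutathione S-transferase, and to EBP1 (PAS_chr3_0377, 0.09), a probable NADPH dehydrogenase. The same 2 genes, at the same differences, were nearest to ALD5 without BMMY replicate 1. Nearest to Gid4 were TPN1 (PAS_chr1-3_0153, 0.43), a vitamin B6 transporter, and the unnamed PAS_chr4_0962 (0.50). Without BMMY replicate 1 they were TPN1 (0.22) and the unnamed PAS_chr4_0058 (0.27). TPN1 had 83.9, 37.2 and 32.7 FPKM in BMMY replicates 1, 2 and 3 and 198 to 233 FPKM with maltose.

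Other genes of these pathways were sparse in the table, which holds selected genes only. Of 46 symbols listed for two-carbon metabolism and transport, 7 genes were present, 3 of them higher and 4 lower past the threshold, with a median log2 fold change of -1.40. Over all genes tested 43.8% were called higher and 50% lower, with a median of -0.35. Besides IDP2, SFC1 and ALD5 these were genes of the acetate and ammonia transporter family. ATO2 (PAS_chr1-1_0158) was 5.91-fold lower and the ADY2-like PAS_chr1-1_0418 2.63-fold lower, while the ADY2-like PAS_chr1-1_0378 and PAS_chr2-1_0874 were 1.63-fold and 1.81-fold higher. The last pair did not pass with TMM factors and turned to log2 values of -0.16 and -0.01 when FPKM sums were made equal.

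ATO2, whose S. cerevisiae namesake acts in ammonia export, was at 250, 874 and 1151 FPKM in BMMY replicates 1, 2 and 3 and between 108 and 154 FPKM with maltose. Like SFC1 and CAT8 it was lowest in BMMY replicate 1 among the BMMY libraries, as 24 of the 56 lower genes were. Of 18 symbols for gluconeogenic and glycolytic enzymes, 2 genes were present and both were called higher, FBP1 (1.66-fold) and the aldolase gene FBA1 (1.61-fold). FBA1 (PAS_chr1-1_0319) had 3746, 2223 and 2291 FPKM in BMMY and 4063 to 4837 FPKM with maltose, so BMMY replicate 1 was again the nearest to the maltose libraries. Neither FBP1 nor FBA1 passed with TMM factors, and with equal FPKM sums they were at -0.12 and -0.14. Leaving out BMMY replicate 2 (0.56) or 3 (0.57), or maltose replicate 1 (0.62) or 2 (0.69), also ended the call of FBA1. Among 27 symbols for transcriptional control of carbon use, CAT8 was the only gene present with that function. MXR1 (PAS_chr3_0066) also matched, but here names a peptide methionine sulfoxide reductase. Gid4 was the only gene present of 19 symbols for the GID ligase and its partners.

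In annotation the 5 genes share little. IDP2, SFC1 and ALD5 are among the 7 listed genes of the KOG class for energy production and conversion. ALD5 alone of the 5 has a KEGG pathway entry, in glycolysis and gluconeogenesis among others, as do FBP1 and the formaldehyde dehydrogenase gene FLD1. CAT8 is 1 of 5 listed genes with a fungal zinc cluster domain. By RefSeq gene order (assembly ASM2700v1) CAT8, SFC1 and Gid4 lie on chromosome 4, IDP2 on chromosome 2 and ALD5 on chromosome 3, and none overlaps another annotated gene. SFC1 lies directly beside another listed gene, the unnamed PAS_chr4_0687, which has a log2 fold change of 1.37 in the authors' deposited table, opposite to that of SFC1.

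The authors' deposited table gives log2 fold changes of -1.11 for CAT8, -1.09 for SFC1, -1.61 for IDP2, 1.11 for ALD5 and 2.02 for Gid4. All listed genes had an absolute value of at least 1.00 there, so CAT8, SFC1 and ALD5 lay just inside the selection. Gid4 has a p-value of 1.86e-02 in the authors' deposited table, which only 2 of the 115 genes exceed, although its fold change is 18th by size there. With the authors' scaling, log2 fold changes lay above those at the depths implied by FPKM by a median of 0.36 over the 112 genes tested.

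**Figure D4:**
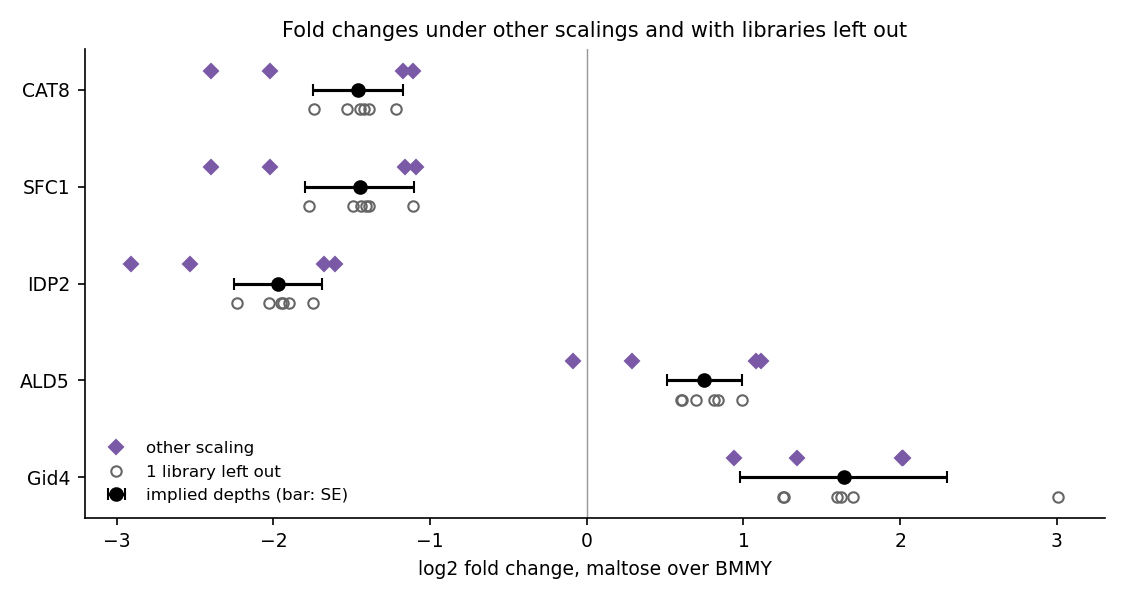
Log2 fold changes of the 5 genes (maltose over BMMY) with library sizes set to the implied depths (black, bar SE), under 4 other scalings (diamonds) and with each library left out (open circles). CAT8, SFC1 and IDP2 stay below 0 and Gid4 above 0 throughout, ALD5 crosses 0 with equal FPKM sums (-0.09), and Gid4 reaches 3.01 without BMMY replicate 1.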

How the data were processed

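Total RNA went through an mRNA isolation kit before library preparation, per the labels' protocols. The tools named per the submitters' processing notes are HISAT2 2.2.1, StringTie and CASAVA. Genome build, annotation and strandedness of the counting: not given in the sources used here. For 115 genes the authors deposited whole-number counts and FPKM values (counts per gene length and library depth), with a p-value and a log2 fold change of their own comparison. Their largest deposited p-value was 0.0465. Counts over the listed genes ran from 3655044 to 8244143 per library. Depths implied by count, FPKM and RefSeq gene length ran from 35.3 to 76.1 M fragments and were used as library sizes, without TMM factors. All 115 identifiers matched RefSeq.

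Genes averaging 1 FPKM or more over the libraries (112 of 115) were fitted with edgeR 4.0.16 in R 4.3.3, group as the only term, with Benjamini-Hochberg adjustment over the 112 and a threshold of 0.05. SE is the absolute log2 fold change over the square root of F. The procedure was tested on simulated data with the same dispersion for every gene and the implied depths taken as true. That test does not cover an outlying library or an error in the scaling. Alternatives used limma 3.58.1, DESeq2 1.42.0 and other scalings. The authors' scaling was solved from 92 genes with counts of at least 200 in every library, to within 0.0034. Named genes were the 5 genes, listed genes of 4 symbol lists, and the 2 other genes most like each. Members and lists were chosen with earlier results of these data known. No DNA or protein sequence is printed.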

Additional observations from a re-analysis of the deposited data

How the results depend on the processing

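Other scalings shift the fold changes, by amounts that differ between genes, with medians of -0.49 for TMM factors, 0.32 for DESeq2 size factors, 0.36 for the authors' scaling and -0.86 for equal FPKM sums. CAT8, SFC1 and IDP2 were at -2.02, -2.02 and -2.53 with TMM factors and at -2.40, -2.40 and -2.91 with equal FPKM sums. ALD5 was at 0.29 with TMM factors, 1.08 with DESeq2 size factors, 1.11 with the authors' scaling and -0.09 with equal FPKM sums. Gid4 was at 1.34 with TMM factors and 0.94 with equal FPKM sums. Genes called higher numbered 13 with TMM factors and 7 with equal FPKM sums, against 49, and members past the threshold numbered 3 with equal FPKM sums, against 5. Why the scalings differ was not tested. Over the fits that each leave out 1 library, the log2 fold change of Gid4 ran from 1.25 to 3.01, genes called higher from 29 to 56 and members past the threshold from 3 to 5. Without BMMY replicate 2 the genes called higher were 29 and without BMMY replicate 1 they were 56. CAT8 ran from -1.74 to -1.22, SFC1 from -1.77 to -1.11, IDP2 from -2.23 to -1.75 and ALD5 from 0.60 to 0.99. The labels do not say whether same-numbered libraries were paired. Over genes, deviations from the group means correlated at -0.15, -0.02 and 0.04 between same-numbered libraries. With 3 libraries per medium these correlations cannot settle it. With the replicate block the genes called were 49 higher and 56 lower, as without it, and log2 fold changes were -1.39 for CAT8, -1.33 for SFC1, -1.91 for IDP2, 0.78 for ALD5 and 2.21 for Gid4. Gid4 was at 2.16 with limma on log2(FPKM + 1), which averages on the log scale, against 1.64. Counting error was at most 3.7% for the 5 genes, a measure that does not cover the scaling between libraries.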
